A study of Mus musculus with 16 samples.

Results

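The comparison set macrophages of the mouse cornea against microglia of the mouse retina, the resident phagocytes of the clear front window and of the nervous tissue of the same organ. Its members are the 4 cornea and the 4 retinal libraries, 8 of the 16 in the series, chosen by their labelled source. All came from C57BL/6 mice aged 8 to 10 weeks, with 10 mice pooled per sample, and no genotype or treatment other than the strain is given for either group. The cornea cells passed a gate on F4/80, CD64, CD11b and CD45 after 3 h in 2 mg/mL collagenase D at 37 °C under shaking. The retinal cells passed a gate on CD11b and CD45 alone, after mechanical dissociation in cold buffer with no enzyme step. Tissue, digestion and gate therefore changed together, and their parts in any difference cannot be told apart.

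Tissue macrophages share a core machinery of growth factor receptors, Fc receptors, complement and lysosomal proteases, on which each organ imprints its own program. Microglia are kept in their resting state by local TGF-beta and carry sensors of nucleotides, fractalkine and sialic acid, under transcription factors such as Sall1. Cornea macrophages lie among the collagen layers of the stroma, where they clear debris, present antigen and help to repair wounds. Macrophages also answer danger within minutes to hours, with immediate-early transcription factors, NF-kappaB targets such as chemokines, and heat shock and antioxidant genes.

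Reads were counted per gene, and total counts ran from 10714335 to 21756558 per library. Levels are in CPM, the count of a gene relative to the scaled total of its library, given as mean ± SD over 4 libraries, and log2 fold changes are cornea against retina with the standard error (SE) of the fit. A gene was called when the adjusted p of edgeR's quasi-likelihood test was under 0.05. Of 15068 genes tested, 9419 were called (62.5%), 4520 higher in cornea macrophages (30.0%) and 4899 lower (32.5%), and 7552 of them differed at least 2-fold. The libraries of the populations did not overlap for 61.0% of genes, so a call or a clean separation was the common case here and marks no gene out. Calls went both ways in similar number, so members in both directions mark no list or family out. The split by direction depends on the scaling: with total counts alone, 2741 genes were higher and 7821 lower, so that 26.0% of calls were higher in place of 48.0%. That setting moved the median log2 fold change of all genes from -0.11 to -0.89. The change of 1 gene therefore reads against that of the other genes, and small changes of either sign rest on the scaling. Whether libraries that share a title number came from separate pools of mice is not given, so p-values measure the spread between these samples, which may be technical in part.

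**Figure D1:**
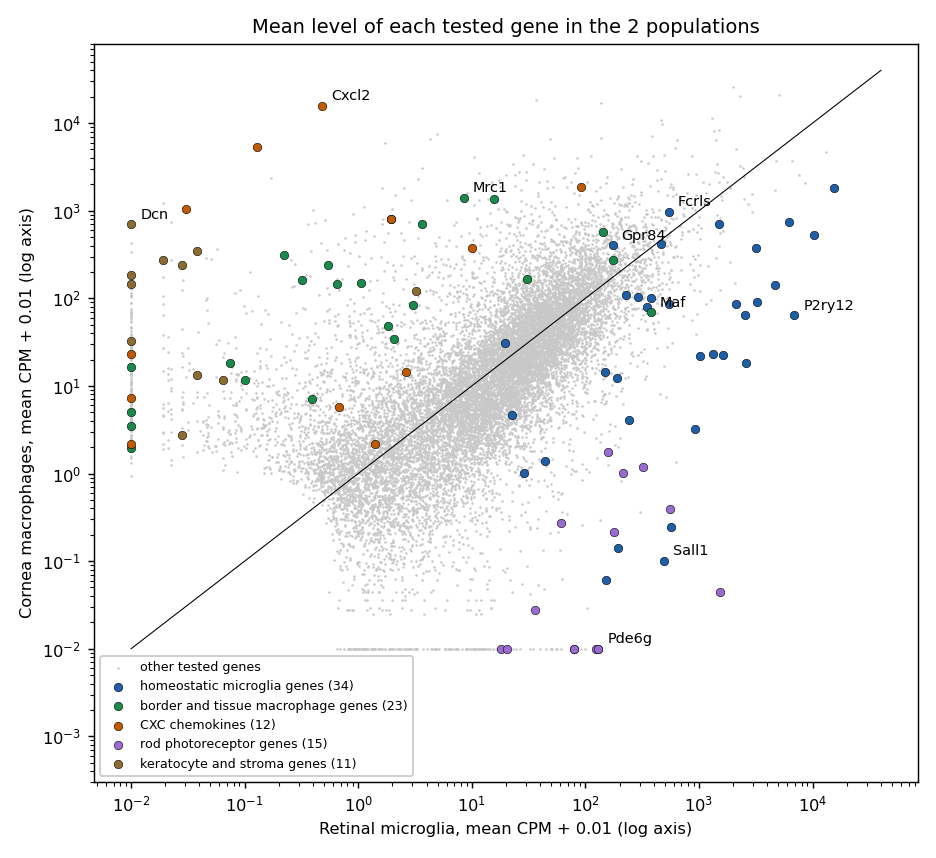
Mean level of each tested gene in retinal microglia (x axis) and cornea macrophages (y axis), in CPM plus 0.01 on log axes, with 5 gene lists in colour and the line of equal level. Homeostatic microglia genes lie to the right of the line except for Fcrls, Gpr84 and Upk1b, border macrophage genes above it except for Maf, and rod and keratocyte genes lie at its far ends.

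The labelled identities were checked against their defining markers first. Adgre1, which encodes F4/80, had 2290, 2124, 2354 and 2346 CPM in cornea libraries 1 to 4 and 518, 525, 361 and 448 CPM in retinal libraries 1 to 4. Fcgr1, which encodes CD64, had 52.7 to 74.4 CPM in the cornea libraries and 275 to 367 CPM in the retinal ones. Of the genes of the markers that gated only the cornea cells, Adgre1 was thus higher in those cells and Fcgr1 lower. The log2 fold change of Fcgr1 was -2.32 ± 0.16 (SE, n = 4 and 4; edgeR adjusted p = 9.98e-07). Ptprc (CD45) had 630 ± 70.8 and 512 ± 75.9 CPM and Itgam (CD11b) 584 ± 83.0 and 795 ± 237 CPM in cornea and retina (SD, n = 4), and neither was called in the main fit. With total counts alone both were called lower in the cornea, by log2 fold changes of -0.48 for Ptprc and -1.23 for Itgam. Itgam was also called lower with all 16 libraries (-0.43), upper quartile scaling (-0.64) or retinal library 3 left out (-0.59). Csf1r, the receptor for the growth factor that macrophages need, stood at 2238 to 2674 CPM in cornea and at 6724 to 8633 CPM in retinal libraries. These are RNA levels, and the gates read protein. The defining markers of both labels were present: Mrc1, Cd68 and C1qa in the cornea libraries, and P2ry12, Tmem119, Sall1, Siglech and Cx3cr1 in the retinal ones. Of the cornea markers, Adgre1, Mrc1 and Cd68 were higher in the cornea, whereas Fcgr1, Csf1r and C1qa were lower there. Scaled over all 16 libraries, C1qa had 646 CPM in the cornea and 1768 CPM in the retina, and Cd68 2910 and 1030 CPM.

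RNA of the surrounding tissue was in every library, each from its own side. The summed level of 12 keratocyte and stroma genes was 1502, 1585, 2705 and 2483 CPM in cornea libraries 1 to 4 and 2.73 to 4.13 CPM in retinal libraries, led by Dcn at 702 ± 217 CPM in the cornea. Corneal epithelium genes summed to 1551, 390, 657 and 280 CPM in the cornea and to at most 2.43 CPM in the retina. Cornea library 1 held most of that RNA, with Krt12, the cornea's own keratin, at 437 CPM against 62.3 to 108 CPM in the other 3. Rod photoreceptor genes summed to 3667, 2321, 824 and 7675 CPM in retinal libraries 1 to 4 and to at most 5.86 CPM in the cornea. No member of the neutrophil, mast cell and red blood cell lists passed the count filter, and the T cell gene Cd3d and the endothelial gene Cldn5 had 0 counts in all 8 libraries. Cd4, Cd28 and Il7r, also known from T cells, were nonetheless higher in the cornea, at 43.6 ± 13.8, 63.6 ± 14.6 and 265 ± 51.3 CPM. Classical monocyte genes were higher in 8 of 9 tested, led by Lyz2 and Clec4e, which macrophages also express. Of monocyte markers, Ly6c2, Chil3 and Hp had means of 0.506 CPM or less in both populations, whereas Ccr2 and F13a1 went the other way. Scaled over all 16 libraries, Ccr2 had 54.7 CPM in the cornea, 0.719 in the retina and 2692 in marrow monocytes. F13a1 had 772, 4.01 and 6395 CPM. What part tissue RNA or other cells had in the results was not tested gene by gene. With all genes of these lists left out before scaling, 4482 genes were higher and 4885 lower.

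The homeostatic microglia list fell almost as a whole in cornea macrophages: 30 of its 34 tested members were lower and 2 higher, with a median log2 fold change of -4.45 against -0.11 over all genes. Sall1 (chr8:89027242-89044162, GRCm38), the zinc finger factor that upholds microglial identity, had 0, 0, 0 and 0.363 CPM in the cornea libraries and 613, 526, 326 and 510 CPM in the retinal libraries. Its relative Sall3 had a single cornea library above 0, at 0.206 CPM, and 131 to 186 CPM in the retina. P2ry12 (chr3:59216271-59262985), the ADP receptor that steers microglial processes, had 51.1, 51.2, 60.1 and 92.3 CPM against 6112, 7553, 7840 and 6054 CPM, a log2 fold change of -6.76 ± 0.27 (adjusted p = 2.43e-08). No library of one population came near the other for these 3 genes. Tmem119, a microglial membrane protein, had 18.4 ± 3.11 and 2596 ± 428 CPM, and Siglech, a sialic acid-binding receptor, 22.9 ± 4.07 and 1317 ± 303 CPM. Cx3cr1, the fractalkine receptor, had 90.2 ± 9.92 and 3268 ± 556 CPM. The fructose transporter gene Slc2a5 was at 0.236 ± 0.395 CPM in the cornea and 567 ± 101 CPM in the retina.

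The exceptions in that list were Fcrls and Gpr84. Fcrls, an Fc receptor-like gene, had 907 to 1060 CPM in cornea and 390 to 686 CPM in retinal libraries. Gpr84, a receptor for medium-chain fatty acids that rises in activated myeloid cells, had 382 to 465 and 140 to 233 CPM. Fcrls was called higher by 0.84 ± 0.19 log2 units (adjusted p = 0.0028) by edgeR, and that call ended with total counts alone, where 1 member of the list was higher and 31 lower. Upk1b and Entpd1 were not called.

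Outside that list, the genes with the largest fall among those above 100 CPM in the retina included Lrrc3, Mlxipl, Adgrg1, Capn3, Pde6g and Rorb. Adgrg1, an adhesion receptor also known as GPR56, had 1.35 ± 0.555 CPM in the cornea and 621 ± 44.8 CPM in the retina. Mlxipl, the glucose-sensing factor ChREBP, had 0.284 ± 0.298 and 134 ± 21.6 CPM. Capn3, a calcium-dependent protease, had 0.803 ± 1.12 and 205 ± 40.9 CPM. Pde6g, a subunit of the rod phosphodiesterase, had 140, 89.3, 41.3 and 253 CPM in retinal libraries 1 to 4, and Rorb, a nuclear receptor of the retina, 74.7, 42.4, 3.68 and 290 CPM. Both were lowest in library 3 and highest in library 4, the order of the rod genes given above, and the part of rod RNA in them was not tested.

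Genes of border and tissue macrophages ran the other way, with 22 of 23 tested members higher in the cornea, 1 lower and a median log2 fold change of 7.38 (7.11 with the 4 genes at 0 counts in the retina held at a floor of 3 counts). Mrc1 (chr2:14229414-14332023), the mannose receptor CD206, had 1435, 1316, 1526 and 1352 CPM in the cornea libraries and 12.5, 6.80, 6.46 and 8.30 CPM in the retinal ones. Its log2 fold change was 7.38 ± 0.26 (adjusted p = 1.46e-08), and the groups did not overlap. Ms4a7, a tetraspan protein of non-microglial brain macrophages, had 1367 ± 64.6 and 15.5 ± 2.92 CPM. Pf4, a chemokine of platelets and border macrophages, had 798 ± 67.9 and 1.92 ± 0.863 CPM, and the haemoglobin scavenger Cd163 151 ± 41.2 and 1.06 ± 1.47 CPM. Lyve1, the hyaluronan receptor that marks a perivascular subset, was low even where it was higher, at 7.10 ± 2.59 against 0.381 ± 0.516 CPM. Timd4, Cd209f, Cd209g and Ccl8 had 0 counts in all retinal libraries, and their cornea counts put them at least 138-fold, 99.3-fold, 55.6-fold and 469-fold higher. The exception was Maf, a factor of resident macrophages, with 48.1, 46.7, 94.4 and 89.0 CPM in cornea and 274, 369, 569 and 295 CPM in retinal libraries. Its log2 fold change was -2.43 ± 0.32 (adjusted p = 8.73e-05). In bulk RNA, more cells of a kind and more RNA per cell cannot be told apart for any of these genes.

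The transcription factors went both ways, with 18 of 38 tested members higher (47.4%), 14 lower (36.8%) and 6 not called. Of all tested genes 30.0% were higher and 32.5% lower. With total counts alone 18 of the factors were higher and 18 lower. Pparg (chr6:115360879-115490404), the lipid-sensing nuclear receptor, had 155, 204, 163 and 123 CPM in the cornea and 0 counts in all retinal libraries, at least 4429-fold higher. Spic, which drives iron-handling macrophages, had 291 to 331 CPM in cornea libraries, while 2 retinal libraries had none and the others 0.546 and 0.295 CPM. Nr1h3, the oxysterol receptor LXR-alpha, had 47.7 ± 14.3 and 0.637 ± 0.510 CPM, and Id3, an inhibitor of DNA-binding factors, 76.6 ± 20.0 and 0.319 ± 0.291 CPM. On the lower side beside the Sall genes, Mef2c had 92.2 ± 13.6 and 595 ± 160 CPM, and Irf8, a factor microglia need, 166 ± 32.4 and 547 ± 63.1 CPM. Spi1, which encodes PU.1, the common factor of myeloid cells, was in both populations, at 505 ± 55.0 and 193 ± 41.5 CPM. Cebpa, Mef2a and Tcf4 were not called.

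**Figure D2:**
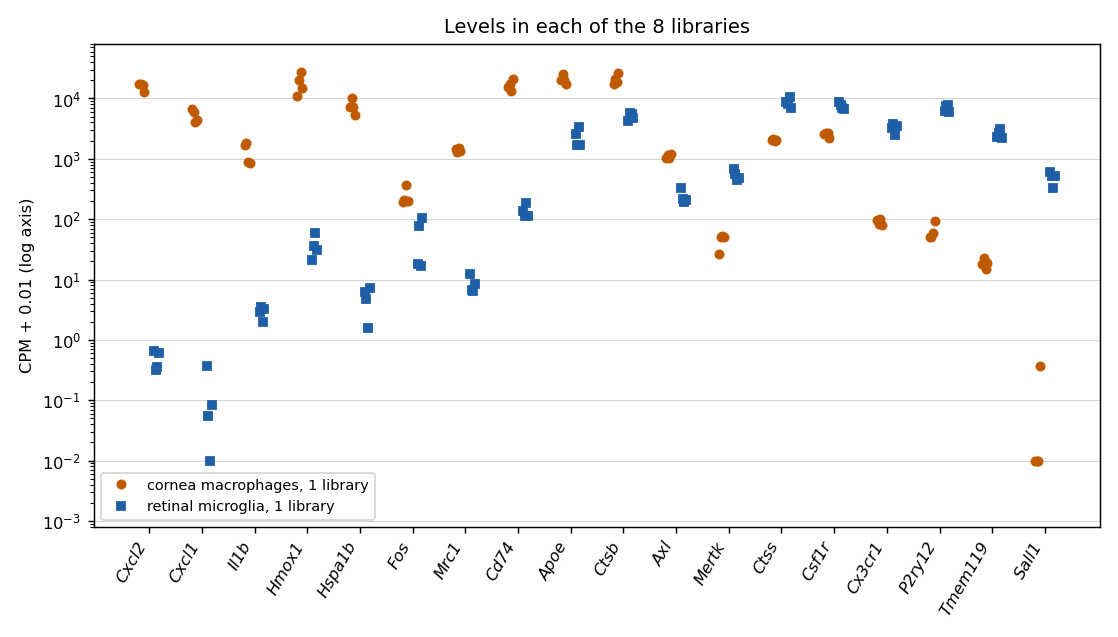
Levels of 18 genes named in the text, in CPM plus 0.01 on a log axis, with 1 point per library for cornea macrophages (orange circles) and retinal microglia (blue squares). Points of the 2 populations lie apart for each gene, by the widest margin for Cxcl1, Cxcl2 and Sall1 and by the narrowest for Fos.

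Chemokine genes differed widely between the populations. Of 12 tested CXC chemokine genes 11 were higher in cornea macrophages and none lower, with a median log2 fold change of 8.46 (6.74 with the 3 genes at 0 retinal counts held at the floor). Cxcl2, which draws neutrophils, had 17273, 17057, 16468 and 12684 CPM in the cornea libraries and 0.647, 0.311, 0.348 and 0.590 CPM in the retinal libraries. Its log2 fold change of 15.03 ± 0.32 (adjusted p = 3.41e-09) rested on 39 retinal counts. Cxcl1, which acts on the same receptor, had 6810, 6070, 4000 and 4425 CPM against 0 to 0.360 CPM. Cxcl3 had 1279, 1193, 1164 and 580 CPM in the cornea and 2 counts in all retinal libraries together, a ratio of 42313 with an exact 95% counting interval of 11713 to 349404. Cornea library 4 was lowest for Cxcl2 and Cxcl3, and still far above any retinal library. Cxcl9, induced by interferon-gamma, was the tested member not called, at 2.14 ± 1.77 and 1.38 ± 2.10 CPM.

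Cxcl1, Cxcl2 and Cxcl3 sit in 1 cluster on chromosome 5 with Cxcl5, Ppbp and Pf4, taken here with all protein-coding genes from Cxcl5 to Areg after the values had been seen. The 11 genes span 389 kb of GRCm38, and 8 of them were tested and called higher in the cornea. Levels of different genes are compared per kb of transcript. Cxcl2 (chr5:90903899-90905938) was highest at 7674 CPM per kb, followed by Cxcl1 (chr5:90891245-90893121) at 2841, Pf4 at 1107, Cxcl3 (chr5:90786101-90788093) at 301 and Areg (chr5:91139599-91148432) at 224. Cxcl5 and Ppbp reached 12.6 and 6.72 CPM per kb with 0 retinal counts. The other 3 did not pass the count filter and were not tested. Cxcl15 had 0 counts in all 8 libraries, and Epgn, an EGF family gene next to Areg, had 0.465 ± 0.591 CPM in the cornea. Ereg, of the same family, had 7.91, 0.460, 2.16 and 0.666 CPM in cornea libraries 1 to 4 and 0 counts in the retina, at least 65.0-fold higher. Mthfd2l, a mitochondrial folate enzyme gene between Cxcl2 and Epgn, had 8.49 ± 2.41 and 3.46 ± 1.00 CPM, a log2 fold change of 1.29 (adjusted p = 0.00761). Cornea levels per kb thus ranged widely between neighbouring genes of the cluster.

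**Figure D3:**
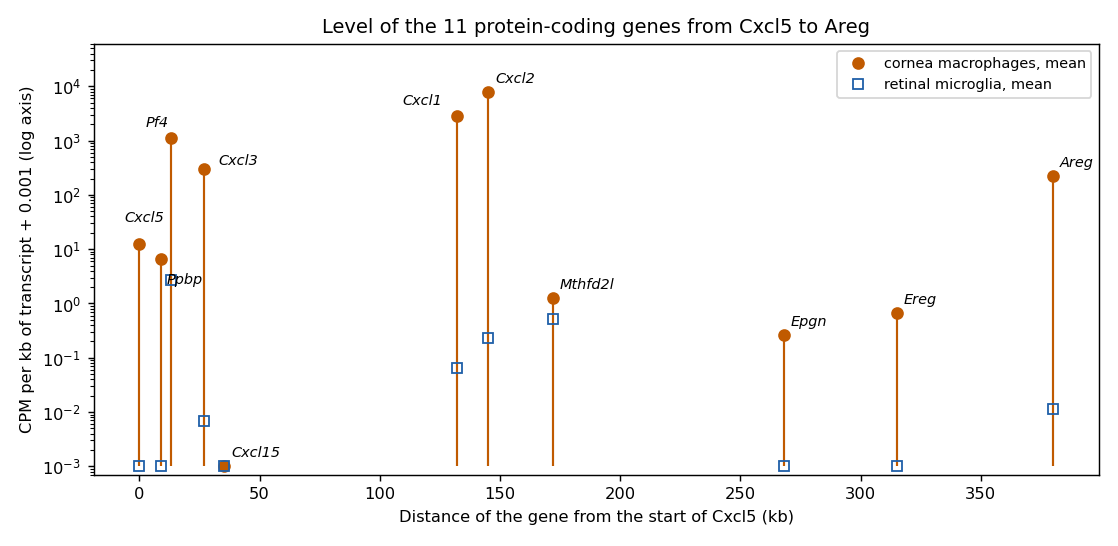
Mean level in CPM per kb of transcript plus 0.001 (log axis) of the 11 protein-coding genes from Cxcl5 to Areg, by distance of the gene from the start of Cxcl5 in kb. Cornea macrophages (orange) reach 7674 CPM per kb at Cxcl2, whereas Cxcl15 is at 0 in both populations and retinal microglia (blue squares) exceed 1 CPM per kb only at Pf4.

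The promoters of the 3 neutrophil-attracting genes are shown because they share a stretch of 11 bases that matches the NF-kappaB consensus on both strands. Each window runs from 250 bases before to 50 after the start of the gene in RefSeq (GRCm38.p6), on the plus strand of chromosome 5, at chr5:90903649-90903948 for Cxcl2, chr5:90890995-90891294 for Cxcl1 and chr5:90785851-90786150 for Cxcl3. Capitals mark bases that match the NF-kappaB consensus, on either strand and with overlap.
Cxcl2: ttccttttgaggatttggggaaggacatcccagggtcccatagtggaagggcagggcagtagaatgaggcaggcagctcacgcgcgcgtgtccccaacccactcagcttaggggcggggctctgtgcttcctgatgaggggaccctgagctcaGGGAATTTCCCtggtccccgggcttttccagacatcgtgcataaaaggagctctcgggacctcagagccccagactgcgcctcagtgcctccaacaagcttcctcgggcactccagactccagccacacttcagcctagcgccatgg
Cxcl1: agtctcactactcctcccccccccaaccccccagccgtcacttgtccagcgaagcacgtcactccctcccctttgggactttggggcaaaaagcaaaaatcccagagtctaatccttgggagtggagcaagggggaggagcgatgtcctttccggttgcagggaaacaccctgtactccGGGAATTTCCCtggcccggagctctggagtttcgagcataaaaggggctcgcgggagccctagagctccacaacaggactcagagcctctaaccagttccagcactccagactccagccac
Cxcl3: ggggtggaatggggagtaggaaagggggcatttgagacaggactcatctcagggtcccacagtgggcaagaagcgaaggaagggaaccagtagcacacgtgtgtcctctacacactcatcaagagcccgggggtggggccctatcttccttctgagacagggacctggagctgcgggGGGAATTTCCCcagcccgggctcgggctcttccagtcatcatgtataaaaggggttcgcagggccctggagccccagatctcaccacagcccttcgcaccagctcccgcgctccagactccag

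That stretch is the same in the 3 windows and begins 97, 71 and 73 bases before the start of Cxcl2, Cxcl1 and Cxcl3. On the strand printed, 12 of 32851 windows of all genes hold it (0.0365%), and its reverse complement was not counted. The shares of motifs that follow count both strands. The wider NF-kappaB consensus was in 15 of 46 windows of the 50 genes most higher in the cornea outside the lists of other cells (32.6%), in 1 of 37 windows of the 50 most lower (2.7%), and in 8.46% of all windows. Only 36 and 29 of the 50 genes had windows, some of them more than 1. With 100 genes each way the consensus was in 23.1% of the higher and 9.3% of the lower windows, so the low share of the lower set did not hold. A match of letters is a description and not a bound site. The AP-1 letters TGANTCA were in 19.6% of the windows of the higher set, 10.8% of the lower and 7.81% of all. The PU.1 letters GAGGAAGT were in 2.17%, 0.0% and 3.2%, and the interferon response core AANNGAAA in 15.2%, 29.7% and 23.9%. With 100 genes each way, AP-1 letters were in 19.8% of the higher and 5.81% of the lower windows. The PU.1 letters were then in 3.3% and 2.33%, and the interferon core in 20.9% and 29.1%.

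CC chemokine genes followed the same pattern, with 11 of 12 tested members higher and 1 lower. Ccl3 and Ccl4, which draw monocytes and T cells, had 3068 ± 277 and 3963 ± 618 CPM in the cornea and 86.5 ± 23.4 and 52.7 ± 12.0 CPM in the retina. Ccl7, a ligand of the monocyte receptor CCR2, had 1225, 1540, 1557 and 2964 CPM against 1.08, 3.56, 0.546 and 4.91 CPM. Ccl22, which draws regulatory T cells, had 74.6, 272, 76.2 and 226 CPM in cornea libraries and 2 counts in the retina. Cornea libraries 2 and 4 were the high ones for Ccl22, and also for Ccr7, the lymph node homing receptor, with 7.71, 44.1, 4.12 and 52.8 CPM. The dendritic cell list, which holds Ccr7, summed to 89.0, 171, 91.8 and 169 CPM in cornea libraries 1 to 4 and to 167 to 225 CPM in the retina, with 5 of 9 tested members higher and 3 lower, and its part was not tested. The exception was Ccl6, with 74.4 to 81.9 CPM in cornea and 219 to 450 CPM in retinal libraries.

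Chemoattractant receptors divided, with 11 of 16 tested members higher and 5 lower. Cxcr4 and Ccr2 had 54.9 ± 9.49 and 49.4 ± 7.80 CPM in the cornea and under 1 CPM in the retina. The complement peptide receptors C5ar1 and C3ar1 had 2883 ± 494 and 2819 ± 367 CPM against 425 ± 40.6 and 505 ± 15.7 CPM, whereas C5ar2, a decoy for C5a, was lower at 19.2 ± 4.89 against 49.2 ± 8.45 CPM. Gpr183 and Cmklr1 were lower as well.

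Of 29 tested cytokine and cytokine receptor genes 22 were higher and 6 lower. Il10, the anti-inflammatory cytokine (chr1:131019845-131024970), had 264, 289, 317 and 482 CPM in the cornea and 0 counts in all retinal libraries, at least 9795-fold higher. Il1b had 1698, 1822, 897 and 841 CPM against 1.94 to 3.56 CPM, and Il1rn, the antagonist of its receptor, 5961 ± 404 against 1.72 ± 1.01 CPM. Cornea libraries 1 and 2 were the high ones for Il1b, whereas Il1rn ran only from 5580 to 6392 CPM among them. Tnf had 1596 ± 359 and 9.06 ± 2.71 CPM, Il12b 149 ± 85.9 and 0.623 ± 0.724 CPM, and Il6 102 ± 33.1 and 7.36 ± 0.416 CPM. On the lower side, Ifngr1, a chain of the interferon-gamma receptor, had 111 to 134 CPM in cornea and 930 to 1111 CPM in retinal libraries, a log2 fold change of -3.08 ± 0.13 (adjusted p = 4.17e-08). The chains Il6ra, Il6st, Il10ra, Il13ra1 and Tnfrsf1a were also lower. Other receptor chains were higher, among them Il10rb at 569 ± 39.9 and 223 ± 19.6 CPM, Il4ra at 543 ± 83.8 and 244 ± 24.9 CPM, Il17ra, Il1rap and Ifnar1, so receptor chains went both ways.

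All 19 NF-kappaB subunit and feedback inhibitor genes were higher in the cornea, with a median log2 fold change of 4.23, and all 19 remained called with total counts alone. Tnfaip3, which encodes the inhibitor A20, had 2602, 2933, 2399 and 2944 CPM in cornea and 101, 71.4, 42.9 and 109 CPM in retinal libraries. Nfkbia, the inhibitor IkappaB-alpha, had 2446 ± 240 and 156 ± 5.14 CPM. Inhibitors rose beside subunits: Nfkb1 had 846 ± 143 and 129 ± 14.7 CPM, and Rela, with the smallest change, 421 ± 65.9 and 156 ± 25.6 CPM.

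Of 27 immediate-early genes 24 were higher and 1 lower, with a median log2 fold change of 4.25; 20 were higher and 2 lower with total counts alone. Nr4a3, an orphan nuclear receptor, had 77.7 to 117 CPM in the cornea and 0 counts in all retinal libraries, at least 2876-fold higher. Fosl1 and Maff had 179 ± 27.0 and 332 ± 76.9 CPM against 0.366 ± 0.271 and 0.835 ± 0.176 CPM. The best known members differed less: Fos had 192, 206, 363 and 202 CPM in cornea and 18.1, 77.8, 16.9 and 103 CPM in retinal libraries, and Egr1 524, 798, 968 and 965 CPM against 16.4, 116, 13.3 and 134 CPM. Retinal libraries 1 and 3, whose titles lack a letter b that those of libraries 2 and 4 carry, were the low ones for both. Jun and Myc were not called, with 404 ± 89.9 and 355 ± 129 CPM for Jun. Klf2 was the lower member, with 24.8 to 34.6 CPM in cornea and 37.5 to 66.8 CPM in retinal libraries. With the 3 cornea and 2 retinal libraries that carry the letter, 23 members were higher and none lower.

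Heat shock genes were higher in 14 of 15 tested and lower in none, with a median log2 fold change of 3.31. Hspa1a and Hspa1b, the inducible HSP70 genes (chr17:34969359-34972156 and chr17:34956429-34959238), had 4643 to 8488 and 5232 to 10135 CPM in cornea libraries and 0.695 to 6.97 and 1.59 to 7.30 CPM in retinal libraries. Their log2 fold changes were 10.57 ± 0.66 and 10.56 ± 0.53 (adjusted p = 4.83e-07 and 1.11e-07). They are near-identical copies, so their reads may have been split between them and each value is uncertain. The other family members differed by smaller margins: Hsph1 had 1741 ± 319 and 27.2 ± 5.85 CPM, Hsp90ab1 4173 ± 362 and 393 ± 51.0 CPM, and Hspa4 279 ± 14.5 and 111 ± 7.59 CPM. Hspa5, the HSP70 of the endoplasmic reticulum, had 6543, 7591, 6300 and 13071 CPM against 1281 to 1711 CPM. Cryab was not called.

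The promoter window of Hspa1a is shown with the heat shock element letters GAANNTTC in capitals (RefSeq, GRCm38.p6, minus strand, chr17:34972107-34972406).
Hspa1a: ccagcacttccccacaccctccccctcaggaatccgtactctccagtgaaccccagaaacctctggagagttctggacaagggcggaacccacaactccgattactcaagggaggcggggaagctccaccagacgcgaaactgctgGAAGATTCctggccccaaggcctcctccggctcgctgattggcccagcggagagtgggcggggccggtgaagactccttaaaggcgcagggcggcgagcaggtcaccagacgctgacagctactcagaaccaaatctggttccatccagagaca
The match begins 104 bases before the start. The Hspa1b window differs from it at 4 of 300 positions and holds the same match at the same place. The letters were in 9 of 16 windows of the heat shock list (56.2%), in 7.86% of all windows and in 2.17% of those of the 50 genes most higher. For the 100 genes most higher the share was 6.59%.

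The oxidative stress genes were higher in 14 of 14, with a median log2 fold change of 6.08. Hmox1 (chr8:75093618-75100593), which breaks down haem, had 11102, 19892, 27135 and 15052 CPM in cornea and 21.2, 36.1, 58.2 and 30.9 CPM in retinal libraries. Its log2 fold change was 8.96 ± 0.47 (adjusted p = 1.33e-07), and library 3 was highest and library 1 lowest among the cornea libraries. Slc7a11, the cystine importer, had 2298 ± 241 and 3.32 ± 1.71 CPM, Srxn1 2696 ± 264 and 11.6 ± 1.61 CPM, and Mt2, a metallothionein, 344 ± 41.7 and 0.370 ± 0.0940 CPM. Nfe2l2, the factor NRF2 that governs many of these genes, was higher by 2.13 ± 0.14 log2 units. In the other populations of the series, scaled over all 16 libraries, Hmox1 had 35.2 ± 5.71 CPM in brain microglia and 131 ± 16.8 CPM in bone marrow monocytes, and Hspa1b 17.9 ± 16.6 and 8.88 ± 4.85 CPM. On that scale the cornea stood at 20239 ± 7652 CPM for Hmox1 and 8274 ± 2276 CPM for Hspa1b, so the high levels were seen in cornea libraries alone among the 4 populations. The warm digestion was applied to cornea cells and not to retinal cells, so its part in the NF-kappaB, immediate-early, heat shock and antioxidant genes cannot be told apart from that of the tissue.

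Interferon-stimulated genes were higher in 24 of 28 tested and lower in none, with 19 higher and 3 lower with total counts alone. Oasl1 had 1068, 1242, 1119 and 1854 CPM in cornea libraries and a mean of 6.08 CPM in the retina, and Rsad2, the antiviral enzyme viperin, 835 ± 197 and 11.2 ± 4.42 CPM. Stat2, Mx1 and Dhx58, of the same list, were among the members not called.

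Antigen presentation showed a split within 1 pathway. Of 10 tested MHC class II genes 5 were higher (50.0%) and 5 lower (50.0%), against 30.0% and 32.5% of all tested genes. The peptide-binding chains and their escort were higher: Cd74, the invariant chain, had 15328, 17138, 13200 and 21389 CPM in cornea and 113 to 184 CPM in retinal libraries, H2-Aa 2522 ± 397 and 24.0 ± 11.5 CPM, and H2-Ab1 2454 ± 813 and 66.7 ± 15.4 CPM. Ciita, the master regulator of the class, had 21.0 ± 5.22 and 0.524 ± 0.376 CPM. Genes of the peptide editor H2-DM and of H2-O, which inhibits that editor, were lower. H2-DMa, of the editor, had 73.9, 98.4, 58.2 and 80.8 CPM against 193, 200, 302 and 192 CPM. The inhibitor genes H2-Ob and H2-Oa had 9.52 ± 3.30 against 75.8 ± 13.8 CPM and 0.440 ± 0.504 against 27.9 ± 6.88 CPM. The log2 fold changes of H2-DMa, H2-Ob and H2-Oa were -1.51 ± 0.21, -2.99 ± 0.27 and -6.06 ± 0.74 (adjusted p = 0.000135, 5.94e-06 and 5.72e-05). H2-DMb1, the other editor chain named here, changed by only -0.69 ± 0.23. With the letter b libraries alone 3 class II genes were called lower in place of 5. The 11 class II genes summed to 22197, 25369, 17700 and 27948 CPM in cornea libraries 1 to 4, highest in libraries 2 and 4, as was the dendritic cell list given above.

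Co-stimulation genes were higher in 9 of 12 and lower in 2. Cd40 had 461 ± 86.4 and 1.13 ± 1.54 CPM, Cd83, a marker of activated antigen-presenting cells, 7090 ± 1304 and 388 ± 56.3 CPM, and Cd86 1626 ± 338 and 312 ± 36.0 CPM. Cd274, the checkpoint ligand PD-L1, had 294 ± 90.7 and 26.4 ± 7.76 CPM. Havcr2 (TIM-3) and Lgals9, which are known as receptor and ligand, were the lower pair, at 176 ± 28.4 and 162 ± 22.8 CPM against 339 ± 19.7 and 324 ± 107 CPM. In MHC class I presentation 8 of 15 genes were higher and 5 lower, which turned to 3 and 7 with total counts alone. H2-K1 and H2-D1 were higher, whereas the immunoproteasome genes Psmb8, Psmb9 and Psmb10 and the peptide pump genes Tap1 and Tap2 were lower, with log2 fold changes from -0.61 to -1.48. The call of Psmb10 ended under RLE scaling, with the title letter as a term or the letter b libraries alone, with libraries of a shared title number summed, and without any 1 of cornea libraries 1, 2 and 3 or retinal libraries 2 and 3 (adjusted p from 0.051 to 0.336). That of Tap1 ended with the letter b libraries alone (adjusted p = 0.0685).

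**Figure D4:**
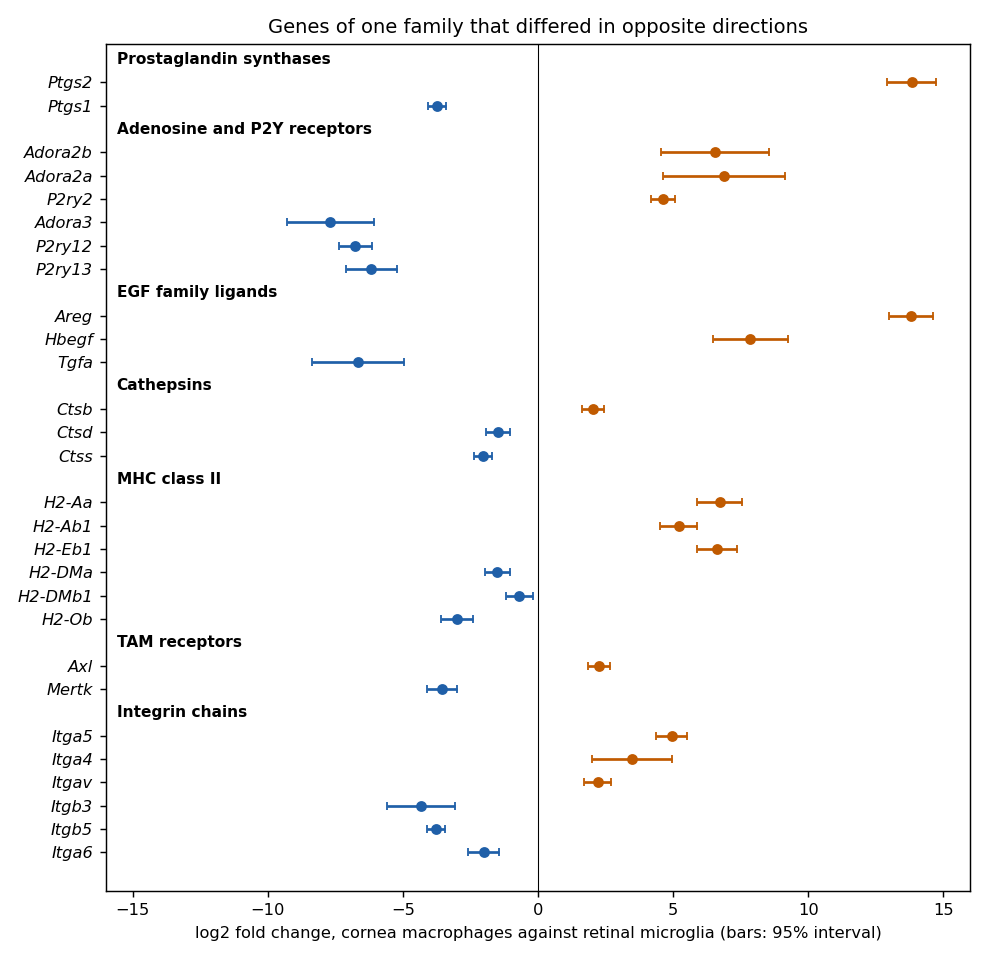
Log2 fold changes (x axis, cornea against retina, with 95% intervals of the fit) of genes from 7 families, higher in orange and lower in blue. Each family holds members on both sides of 0, from Ptgs2 at 13.82 to Adora3 at -7.70; the members plotted were chosen after their values were seen.

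The prostaglandin synthase genes Ptgs2 and Ptgs1 differed in opposite directions. Ptgs2, the inducible cyclooxygenase (chr1:150100031-150108234), had 2704, 2447, 2188 and 2087 CPM in cornea and 0.0369 to 0.356 CPM in retinal libraries. Ptgs1, the constitutive one (chr2:36216742-36258593), had 89.5, 82.0, 92.6 and 83.8 CPM against 1275, 1153, 1250 and 947 CPM. Their log2 fold changes were 13.82 ± 0.40 and -3.73 ± 0.15 (adjusted p = 7.48e-09 and 2.80e-08), and no library of either population crossed over. Ptges, which makes prostaglandin E2, and its receptors Ptger2 and Ptger4 were higher, while Hpgd, which degrades it, had 81.5 ± 4.51 and 565 ± 126 CPM. Tbxas1 and Ltc4s, which make thromboxane and leukotriene C4, were lower. Of the 17 tested eicosanoid and arginine genes 8 were higher (47.1%) and 6 lower (35.3%), against 30.0% and 32.5% of all tested genes. With total counts alone 8 were higher and 8 lower.

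Purinergic receptors and ectonucleotidases went both ways, 6 higher (46.2%) and 5 lower (38.5%) of 13, against 30.0% and 32.5% of all tested genes. With total counts alone 4 were higher and 6 lower. P2ry2, which senses ATP and UTP, had 117 ± 18.7 and 4.80 ± 0.864 CPM, and Adora2b, the low-affinity adenosine receptor, 29.5 ± 4.67 and 0.271 ± 0.509 CPM. Adora3 had 0.339 ± 0.549 and 68.6 ± 10.5 CPM, and Adora1 0 counts in all cornea libraries and 14.7 to 23.6 CPM in the retina, at least 344-fold lower. P2ry13 fell with P2ry12, at 22.5 ± 12.4 and 1623 ± 394 CPM. The ATP-gated channel P2rx7 was higher in the cornea, at 545 ± 62.3 and 220 ± 58.8 CPM.

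Among growth factors 11 of 17 were higher and 3 lower (11 and 6 with total counts alone). Areg, an EGF receptor ligand of tissue repair, had 227, 309, 264 and 290 CPM in cornea libraries and 1 count in the retina, a ratio of 23110 with an exact 95% interval of 4147 to 912844. Hbegf, another such ligand, had 288 ± 112 and 1.27 ± 0.937 CPM, whereas Tgfa, of the same family, had 1.03 ± 1.33 and 108 ± 22.6 CPM. Vegfa had 304, 139, 140 and 124 CPM in the cornea and 2.02 ± 0.876 CPM in the retina, highest in the library with the most epithelial RNA. Vegfb was lower in the cornea, at 12.2 ± 2.72 and 26.9 ± 8.54 CPM. Gdf15, a stress hormone, had 1098 ± 210 and 1.11 ± 0.575 CPM. Tgfb1 was higher at 361 ± 67.6 and 134 ± 20.9 CPM, while its receptor genes Tgfbr1 and Tgfbr2 were lower, Tgfbr2 at 213 ± 15.4 and 892 ± 160 CPM. Its mediators went both ways, with Smad3 at a log2 fold change of -1.19 and Smad2 and Smad4 higher at 0.80 and 1.04. The calls of Smad2 and Smad4 ended with total counts alone.

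Receptors for apoptotic cells and integrins also differed by member. Axl had 1041, 1179, 1034 and 1212 CPM in cornea and 323, 213, 192 and 206 CPM in retinal libraries, and Mertk, of the same receptor family, 26.5, 50.3, 52.5 and 51.6 CPM against 670, 553, 439 and 474 CPM. Pros1, a ligand of Mertk, was lower as well, at 125 ± 26.6 against 905 ± 114 CPM. Of 17 uptake genes 7 were higher (41.2%) and 7 lower (41.2%), against 30.0% and 32.5% of all tested genes. With total counts alone 6 were higher and 9 lower. Itga5, a chain of the fibronectin receptor, had 1249 ± 363 and 40.6 ± 7.49 CPM, while Itgb5 and Itgb3, which pair with the alpha-V chain, had 151 ± 12.9 and 4.66 ± 3.10 CPM against 2055 ± 251 and 93.7 ± 19.4 CPM. The alpha-V gene Itgav itself was higher, at 865 ± 34.8 and 189 ± 57.3 CPM.

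Matrix and repair genes were higher in 17 of 21 and lower in 1. Mmp13, a collagenase, had 515, 882, 531 and 929 CPM in cornea and at most 1.44 CPM in retinal libraries. Mmp12, the macrophage elastase, had 220 ± 77.0 and 3.62 ± 2.71 CPM, and the urokinase gene Plau 466 ± 145 and 17.3 ± 5.67 CPM with its receptor gene Plaur at 2796 ± 1413 and 26.1 ± 6.88 CPM. Fn1, fibronectin, had 72.2 ± 16.9 and 0.900 ± 0.992 CPM. Stromal cells also make several of these, and the part of the stromal RNA given above was not tested.

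The genes with the largest fitted log2 fold change among those above 100 CPM, outside the lists of other cells, were Emp1, A2m, Cxcl1, Il10, Flrt3, Cxcl3, Cxcl2, Apod, Pparg, the predicted gene Gm26667, Arc and Bgn. Their order is not established, since fitted values against 0 retinal counts are no bounds: Bgn, Gm26667, Arc and Apod were at least 3291-fold, 3625-fold, 3686-fold and 5126-fold higher, below the ratio of 23110 for Areg. Emp1, an epithelial membrane protein, had 913 to 1423 CPM in cornea libraries and 1 count in the retina. Flrt3, an adhesion protein, had 570 to 857 CPM and 1 count. A2m, a protease inhibitor, had 353, 364, 695 and 317 CPM, and Arc, known from neurons, 89.3, 189, 84.1 and 154 CPM, with 0 retinal counts for both. Apod, a lipid carrier, had 118, 157, 235 and 200 CPM and Bgn, the matrix proteoglycan biglycan, 92.1, 94.5, 155 and 120 CPM. For Apod and Bgn libraries 3 and 4 were above 1 and 2, as for the stroma genes, whose part in them was not tested.

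Lipid handling genes were higher in 16 of 19 and lower in 2. Apoe, the main lipid carrier of macrophages, had 20145, 25161, 20126 and 17116 CPM in cornea and 1702 to 3334 CPM in retinal libraries. Cd36, the scavenger of oxidised lipoprotein, had 1547 to 2270 CPM against 0.288 to 3.33 CPM, Plin2, the coat of lipid droplets, 2969 ± 266 and 43.3 ± 6.02 CPM, and Fabp4 123 ± 13.6 and 1.25 ± 2.11 CPM. The exceptions were Lpcat2, a phospholipid enzyme, at 257 ± 59.1 and 1878 ± 286 CPM, and Apoc1, at 0.182 to 0.822 CPM in cornea and 0.719 to 6.76 CPM in retinal libraries. In sterol synthesis 9 of 15 were higher and 2 lower, and 6 and 4 with total counts alone. Insig1, a brake on that synthesis, had 226 ± 50.0 CPM in the cornea against 22.7 ± 4.63 CPM, while Scd2 and Dhcr7 were lower.

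The list of disease-associated microglia genes, known from neurodegeneration, came out 15 higher and 6 lower of 23, and 10 and 7 with total counts alone. Lgals3, Spp1 and Apoe led the higher members, with 4342 ± 570 and 1055 ± 173 CPM against 28.3 ± 10.5 and 19.1 ± 8.77 CPM for the first 2. Trem2, the lipid receptor that this state depends on, was lower, with 157 to 183 CPM in cornea and 733 to 1219 CPM in retinal libraries, a log2 fold change of -2.38 ± 0.19 (adjusted p = 2.23e-06). Cst7 and Ctsd were lower too.

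Lysosomal genes went both ways, 7 higher and 10 lower of 24, and 5 and 16 with total counts alone. In the main fit 29.2% were higher and 41.7% lower, against 30.0% and 32.5% of all tested genes. Ctsb had 17544 to 26631 CPM in cornea and 4251 to 5731 CPM in retinal libraries, whereas Ctss had 1982 to 2105 against 6979 to 10426 CPM and Ctsd 4636 ± 649 against 13070 ± 3329 CPM. Cst3, which encodes the cathepsin inhibitor cystatin C, had 1822 ± 180 and 15496 ± 4423 CPM. Per kb, the most abundant RNAs of cornea macrophages included Fth1, the ferritin heavy chain, at 30061 CPM per kb, Cd74 at 11889, Apoe at 10423 and Hmox1 at 8466. In retinal microglia they included Cst3 at 12241 CPM per kb, Ctss at 6286 and C1qb at 6033. Of 13 tested iron and haem genes 9 were higher and 2 lower, or 6 and 4 with total counts alone. Slc40a1, the exporter ferroportin, was lower at 118 ± 30.5 and 258 ± 20.5 CPM, and the importer Slc11a2 higher at 966 ± 218 and 50.5 ± 6.27 CPM. The call of Slc40a1 ended with all 16 libraries (log2 fold change -1.11, edgeR adjusted p = 0.084) and under glmTreat.

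Sensors of microbes differed by member. C-type lectin genes were higher in 12 of 16 and lower in 2. Clec4d and Clec4e, which bind mycobacterial lipid, had 1018 ± 138 and 1493 ± 132 CPM in the cornea and 0.390 ± 0.323 and 2.12 ± 1.87 CPM in the retina, while Clec7a, the beta-glucan receptor dectin-1, was lower at 156 ± 14.9 and 266 ± 58.1 CPM. Of the 17 Toll-like receptor genes 7 were higher (41.2%) and 6 lower (35.3%), against 30.0% and 32.5% of all tested genes. With total counts alone 4 were higher and 8 lower. Tlr2 and its partner Cd14 had 1513 ± 158 and 5162 ± 1305 CPM against 306 ± 36.6 and 618 ± 80.5 CPM, and Tlr4, Tlr3 and Tlr12 were lower. For inflammasomes, Nlrp3 and Casp4 had 1095 ± 98.2 and 253 ± 33.4 CPM against 42.6 ± 7.00 and 19.7 ± 6.18 CPM, whereas Pycard, the adaptor ASC that links sensor to caspase, had 11.4 ± 1.38 and 109 ± 19.3 CPM. Cybb, the catalytic chain of the phagocyte NADPH oxidase, had 2107 ± 55.7 and 39.2 ± 8.48 CPM, and Ncf1, a cytosolic partner, was lower at 162 ± 19.5 and 357 ± 46.2 CPM.

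**Figure D5:**
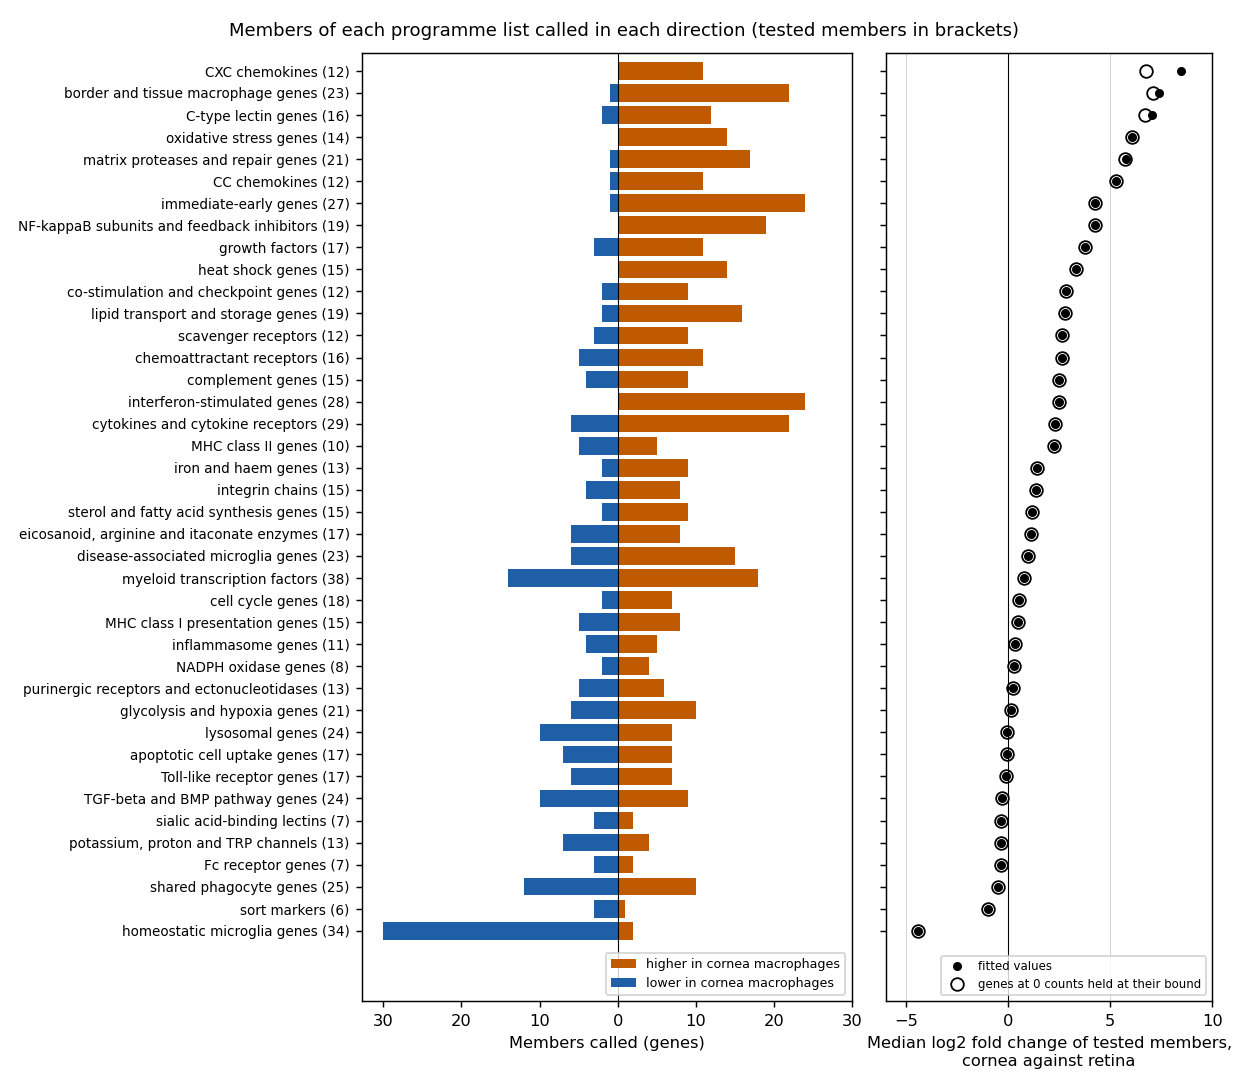
Number of members called higher (orange, right) and lower (blue, left) in cornea macrophages for each programme list, with the number tested in brackets, and the median log2 fold change of the tested members (filled points; open circles hold genes with 0 counts in a population at a floor of 3 counts). The lists run from CXC chemokines, with 11 higher and 0 lower, to homeostatic microglia genes, with 2 higher and 30 lower.

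Against these differences stood a shared base. For 2591 genes (17.2%) the 95% interval of the log2 fold change lay within 2-fold in either direction, 420 of them called. Among the most abundant were Grn, progranulin, at 1315 ± 238 and 1595 ± 455 CPM, and Pdia3, a folding enzyme, at 1469 ± 145 and 1562 ± 179 CPM. Ctsz had 2267 to 2750 CPM in cornea libraries and 2055, 2192, 3743 and 1874 CPM in retinal libraries, and Psap, the saposin precursor, 1038 to 2794 and 1419 to 2889 CPM. The shared level of these genes rests on the scaling. With total counts alone Grn, Pdia3, Ctsz and Psap were called lower in the cornea, at -1.04, -0.86, -0.8 and -0.82 log2 units. Actb, Tmsb4x and Sepp1 were called higher by 0.50, 0.49 and 0.55 log2 units with overlapping libraries, and with total counts alone each turned to a negative value that was not called. The C1q genes, shared marks of resident macrophages, were high in both populations and lower in the cornea, C1qb at 3708 ± 215 and 6564 ± 1755 CPM. The call of C1qb ended with all 16 libraries (log2 fold change -0.81, edgeR adjusted p = 0.18) and under glmTreat. Of 18 cell cycle genes 7 were higher and 2 lower, which turned to 3 and 6 with total counts alone. Mki67, a mark of dividing cells, had 157, 149, 184 and 63.8 CPM in cornea and 12.4 to 50.1 CPM in retinal libraries.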

How the data were processed

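RNA of pooled, sorted mouse cells was sequenced, and 4 cornea and 4 retinal libraries were analysed. The authors deposited 1 table of raw read counts per gene with each gene's length, per the file headers. The submitters' processing notes name CASAVA 1.8.2, Subread, featureCounts, limma and the build GRCm38.p4, without their roles. The sources used here do not give how reads with several matches were handled or whether counting used strand, so near-identical copies, overlapping and antisense genes are uncertain. The 27 entries with a date in place of a symbol held at most 0.223% of a library's counts and were left out. No per-sample column was unmapped (0).

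Groups came from the labels; replicate numbers follow the deposit and pair nothing. Genes were kept by edgeR 4.0.16 (R 4.3.3; filterByExpr, minimum count 10), scaled by TMM (factors 0.736 to 0.779 in cornea and 1.261 to 1.367 in retina) and tested by quasi-likelihood with Benjamini-Hochberg adjustment. Every adjusted p in the text is from that test. A fold against 0 counts is a bound at a floor of 3 counts over the group; 95% intervals on counts, by the exact binomial method, cover counting error only, since reads without molecular identifiers are not independent molecules. On simulated counts for 14508 genes the test recovered 43% of 2-fold and 96% of 4-fold changes, with 7 false calls. The simulation changed only 100 genes at each fold, whereas 62.5% of genes were called in the data. Its rates therefore need not hold for these data. Symbols, coordinates and promoters came from RefSeq (GRCm38.p6), which matched 368 of 373 named genes.

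The gene lists and the members were chosen with earlier results of these data known. Named genes were up to 6 called members of each list with the largest change that reached 10 CPM, called members against their list's direction, the sort markers, the 12 largest changes each way at 100 CPM or more without overlap outside the lists of other cells, the 15 most abundant genes of each population and the 10 most abundant at a shared level. Other list members named, the chromosome 5 cluster and the family plot were chosen after their values were seen. Some genes that the rule names are not reported here, though they stay in the fit and in the list counts. Alternatives covered scaling (total counts, upper quartile, RLE), DESeq2 1.42.0, limma-voom 3.58.1, glmTreat, filters, all 16 libraries, lane, title letter and each library left out. Tables and plots used Python 3.11.15, pandas 2.3.3, NumPy 2.4.6, SciPy 1.17.1 and Matplotlib 3.10.9.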

Additional observations from a re-analysis of the deposited data

Results flagged for a closer look

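In 25 of 558 groups of 4 libraries, 1 library stood apart from the other 3 by its gap over the group's range; chance alone flags about 1 in 20 groups. None of these values had its cause tested.

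In the cornea, library 1 had the most epithelial keratin RNA, with Krt12 at 437 CPM against 62.3 to 108 CPM and Krt5 at 193 CPM against 15.9 to 40.0 CPM. The same library was highest for Vegfa, at 304 CPM against 124 to 140 CPM, and for Cybb, at 2190 CPM against 2070 to 2088 CPM, and lowest for Mertk, at 26.5 CPM against 50.3 to 52.5 CPM. Library 2 was highest for Irf8, at 214 CPM against 146 to 156 CPM. Library 3 was highest for the protease inhibitor A2m, at 695 CPM against 317 to 364 CPM. Library 4, the only one of the 8 sequenced in lane 3, was lowest for Cxcl3, at 580 CPM against 1164 to 1279 CPM, for Ctsd, at 3667 CPM against 4881 to 5040 CPM, and for the nucleotide receptor P2ry6, at 93.8 CPM against 114 to 115 CPM. It was highest for Tnip3, an NF-kappaB inhibitor, at 1022 CPM against 574 to 642 CPM, for Gpr84, at 465 CPM against 382 to 396 CPM, and for C2, at 16.1 CPM against 8.20 to 9.25 CPM.

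In the retina, library 3 stood apart most often. The blue cone opsin gene Opn1sw was at 0.894 CPM there against 24.9 to 29.8 CPM, and the integrin gene Itga6 at 242 CPM against 498 to 537 CPM and Ptprc at 399 CPM against 537 to 562 CPM were low as well. It was highest for Ccl6, at 450 CPM against 219 to 255 CPM, for Ctsz, at 3743 CPM against 1874 to 2192 CPM, for Cyba, at 446 CPM against 299 to 316 CPM, and for Tgfb1, at 164 CPM against 121 to 128 CPM. Library 1 was highest for Axl, at 323 CPM against 192 to 213 CPM, and lowest for Slc40a1, at 227 CPM against 265 to 271 CPM. Library 2 was highest for Bnip3, at 46.4 CPM against 38.3 to 39.3 CPM, and for Tlr13, at 403 CPM against 301 to 311 CPM. Library 4 was lowest for Hhex, at 68.9 CPM against 81.3 to 83.5 CPM.

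Entries whose symbol had turned into a date, which no comparison used, held up to 0.223% of a library's counts.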

How the results depend on the processing

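Direction counts rested most on scaling: total counts alone gave 2741 genes higher and 7821 lower, and upper quartile scaling 3991 and 5581. glmTreat, which tests against a 2-fold change, called 5465 genes, 2713 higher and 2752 lower. Leaving out 1 library in turn gave 4279 to 4793 higher and 4434 to 5114 lower. With an interval within 1.5-fold in place of 2-fold, 595 genes were at a shared level. Of 373 named genes 365 were called, 60 lost the call under at least 1 of 23 alternatives (56 of them under glmTreat) and 13 turned direction. With total counts alone the log2 fold change turned to -0.28 for Actb, -0.04 for Cd33, -0.31 for Cd53, -0.08 for Fcgrt, -0.09 for Lamp2, -0.26 for Npc2, -0.48 for Ptprc, -0.32 for Rac2, -0.22 for Sepp1, -0.29 for Tmsb4x and -0.52 for mt-Cytb. Ctsz, not called, gave 0.28 with the letter b libraries alone, 0.03 with limma-voom, 0.06 with the title letter as a term, and -0.13 to 0.25 with 1 library left out. Psap, not called, gave 0.15 in lane 2 alone, 0.14 with lane as a term, 0.04 with the letter b libraries alone, 0.12 with the title letter as a term, and -0.33 to 0.22 with 1 library left out. Calls were also gained. Ctsz, Psap, Grn, Pdia3, Itgam and Ptprc, not called in the main fit, were called lower with total counts alone. Their log2 fold changes there were -0.8, -0.82, -1.04, -0.86, -1.23 and -0.48. With 1 library left out, the mitochondrial share of counts, percent, cornea minus retina, ran from -0.025 (without cornea library 3) to 0.166, and the ribosomal protein share of counts, percent, cornea minus retina, from -0.112 to -0.063, where 3 libraries against 4 cannot pass the adjusted exact test. Of 2714 list counts under the alternatives, 148 moved by over 1.5 times. The cause of each change was not tested. No paired analysis was possible because replicate numbers follow the deposit and the groups share no number that pairs samples. Depth limits genes with few counts in 1 population, whose folds are bounds.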

Other observations

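Sugar metabolism and channels differed by member too. Of 21 glycolysis and hypoxia genes 10 were higher in cornea macrophages (47.6%) and 6 lower (28.6%), against 30.0% and 32.5% of all tested genes. With total counts alone 7 were higher and 10 lower. Pfkp, the platelet form of phosphofructokinase, had 210 ± 30.4 CPM in the cornea and 18.1 ± 8.93 CPM in the retina (SD, n = 4), while Pfkl, the liver form, had 21.3 ± 1.71 and 112 ± 5.74 CPM. Slc2a1, the glucose transporter GLUT1, was higher at 161 ± 43.1 and 46.8 ± 6.87 CPM, the reverse of the fructose transporter gene Slc2a5. Pdk1, which holds pyruvate back from mitochondria, had 8.18 ± 1.07 and 148 ± 31.2 CPM. Among 13 channel genes 4 were higher and 7 lower: the calcium-activated potassium channel gene Kcnn4 had 135 ± 25.2 and 7.01 ± 2.14 CPM, and Kcnk6, a two-pore channel gene, 22.2 ± 5.01 and 262 ± 21.5 CPM. Kcnk13, which encodes the resting potassium channel THIK-1 of microglia, was not called, at 161 ± 24.1 and 138 ± 18.9 CPM.

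Complement genes split between the start of the cascade and its later steps. C1qa, C1qb and C1qc were lower in the cornea, though the call of C1qb ended with all 16 libraries. C3, the central component, was higher at 70.1 ± 22.2 against 3.18 ± 1.21 CPM, with Cfp, which encodes properdin, at 511 ± 111 against 1.37 ± 0.607 CPM. Of 7 tested Fc receptor genes 2 were higher and 3 lower, or 0 and 4 with total counts alone. Fcgr3 had 277 ± 79.0 CPM in the cornea and 915 ± 191 CPM in the retina, and the inhibitory receptor gene Fcgr2b was not called. In the TGF-beta list of 24 genes 9 were higher (37.5%) and 10 lower (41.7%), against 30.0% and 32.5% of all tested genes. The target genes Id2 and Id3 were higher and the receptor genes Eng, Acvrl1 and Bmpr2 lower. The B cell genes Ighm and Cd79b were at 512 ± 63.7 and 51.9 ± 15.3 CPM in retinal libraries, where Cd79a had 0.203 ± 0.165 CPM.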
